A study of Homo sapiens with 18 samples.

Results

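The genes described here are the MHC class II genes and CIITA: CIITA, CD74, HLA-DRA, HLA-DRB1, HLA-DQA1, HLA-DQB1, HLA-DPA1, HLA-DPB1, HLA-DMA and HLA-DMB, 10 of the 19839 protein-coding genes considered (chromosomes 1 to 22 and the X chromosome). They were chosen by name. For each gene, the peaks of 6 targets were taken that overlapped by at least 1 bp its record in the RefSeq annotation (GRCh38.p14) or the 10 kb on either side, together called the window of the gene.

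Class II molecules are cell-surface pairs of an alpha and a beta chain that show peptides from engulfed proteins to CD4+ T cells. CD74, the invariant chain, fills the groove of the pairs DR, DQ and DP as they assemble in the endoplasmic reticulum. In late endosomes HLA-DM, made of HLA-DMA and HLA-DMB, exchanges the remnant of CD74 for a peptide. CIITA, a coactivator that does not itself bind DNA, switches the whole set on. It docks on RFX, CREB and NF-Y proteins bound at the X and Y boxes of class II promoters, is made in professional antigen-presenting cells from its own promoters, and is induced by interferon-gamma in many other cells, tumour cells included.

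MDA-MB-231, a long-established human line of triple-negative breast cancer, was studied by ChIP-seq, which sequences the DNA pulled down with an antibody to a chromatin protein or mark. Libraries of the parental line were made with antibodies to KDM2B (a CpG-binding histone demethylase of the variant Polycomb complex PRC1.1), MYC and ATF4 (transcription factors), H3K4me3 (a promoter mark), H3K27me3 and H2AK119ub (the marks of the Polycomb complexes PRC2 and PRC1), beside an input. Cells of the same line carrying an empty vector (EV) gave the libraries for H3K27ac, found at promoters and enhancers in use, and for an input of their own. The 18 libraries form 9 groups of 2, the labels name no interferon or other treatment of any group, and nothing says that the 2 libraries come from separate cultures. ATF4 was not analysed here.

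The deposited results are 1 peak list for each of the other 6 targets. A list does not resolve its 2 libraries and gives no read counts, so no value below has a replicate error, no comparison of values could be tested, and the depth behind them is unknown. KDM2B had 20018 peaks in all, MYC 49833, H3K4me3 71597 and H3K27ac 95771, while H2AK119ub had 234493 and H3K27me3 306484. The fold of a peak, a ratio over background that the authors' peak caller gives at the summit, is compared only within its own list, where the share of peaks with a lower fold gives its rank. H3K27ac was measured in the EV cells and the other 5 targets in the parental line, so for H3K27ac the mark and the cell stock cannot be told apart. Of genes taken as active in this line, VIM, CD44, AXL, EGFR and FN1, all 5 had H3K27ac at the start and 0 had H3K27me3 in the window. Of 5 taken as inactive, ESR1, PGR, GATA3, EPCAM and CDH1, H3K27ac was at 2 starts (GATA3 and EPCAM), H3K4me3 at 4, and H3K27me3 only in the window of CDH1, so a lack of H3K27me3 did not separate these lists. H3K27ac was at the start of none of the 7 blood cell genes MS4A1, CD79A, PAX5, PTPRC, SPI1, ITGAX and CD14 (63.7% of all genes). However, 4 of them had H3K4me3 there (69.2% of all genes). H3K27ac was in the windows of 4 of the 7 (78.4% of all genes), CD79A, PAX5, PTPRC and CD14, with folds of up to 106.

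H3K4me3, the mark of promoters, was found at 9 of the 10 class II genes (82.9% of all genes), while KDM2B and MYC were found only in the windows of CIITA and CD74. KDM2B had peaks at these 2 of 10 genes (59.6% of all genes) and so did MYC (79% of all genes). None of the 8 HLA genes had a peak of either factor. H3K27ac lay in 7 windows (78.4% of all genes), H2AK119ub in all 10 (68%) and H3K27me3 in 8 (50.1%), with CIITA and HLA-DMA as the exceptions.

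Counted within 1 kb of a start, H3K4me3 was at 9 of 10 genes against 69.2% of all genes, and H3K27ac at 6 against 63.7%. MYC was at 2 (64.5% of all genes) and KDM2B at 1 (48.1%). H3K27me3 was at the start of 4 genes (23.5% of all genes), HLA-DRB1, HLA-DQA1, HLA-DQB1 and HLA-DPA1, and H2AK119ub at that of 2 (38.1%), HLA-DQA1 and HLA-DPA1. The reference gives no start for CIITA and HLA-DRA, where both ends of the record were used. For CIITA all of the KDM2B, MYC and H3K4me3 counted in this way lay at the upper end of the record, beside the starts of its neighbours DEXI and CLEC16A.

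Several combinations of peaks recurred among the HLA genes. They were not among the results planned beforehand, and they join the counts given above, so they are not separate observations. H3K4me3 with neither MYC nor KDM2B in the window was found at 7 of the 10 genes, all of them HLA genes, and at 5.44% of all genes. H3K4me3 at the start together with H3K27me3 in the window was found at 7 genes against 28.4% of all genes. Both Polycomb marks shared a window at 8 genes (44.6% of all genes). H3K4me3 and both Polycomb marks without MYC or KDM2B were found at 6 genes, HLA-DRA, HLA-DRB1, HLA-DQB1, HLA-DPA1, HLA-DPB1 and HLA-DMB, and at 3.04% of all genes. CD74 was the 1 member with peaks of all 6 targets, which 22% of all genes had. The windows of HLA-DPA1 and HLA-DPB1, of HLA-DQA1 and HLA-DQB1 and of HLA-DMA and HLA-DMB overlap and share peaks, so these counts are not of independent genes.

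**Figure D1:**
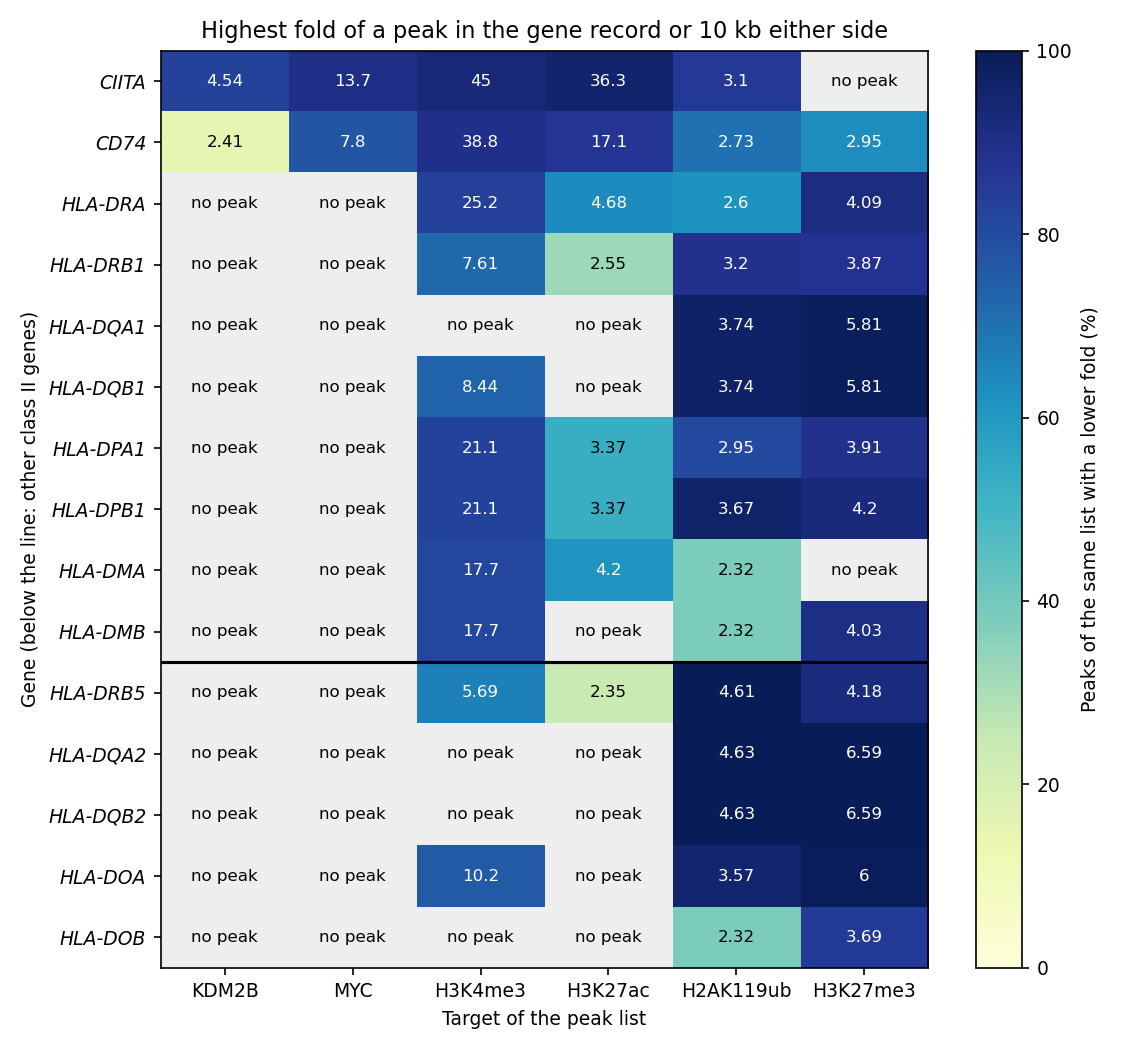
Highest peak fold in the window of each gene (vertical axis, members above the line and 5 other class II genes below it) for each of the 6 peak lists (horizontal axis); the colour gives the share of peaks of the same list with a lower fold, in percent, and grey marks no peak. The KDM2B and MYC columns are empty below CD74, while 9 of the 10 members have H3K4me3 and 8 have H3K27me3.

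Like CD74, CIITA, the master regulator, had KDM2B, MYC, H3K4me3 and H3K27ac in its window. Its record (chromosome 16, 10866206 to 10943021) held 2 separate stretches with KDM2B, MYC, H3K4me3 and H3K27ac, and no H3K27me3 peak lay in its window. The first stretch was inside the gene. There an H3K4me3 peak of 5021 bp, chr16:10876513-10881533, had a fold of 42.7, higher than 91.6% of the list. It overlapped the strongest MYC peak of any member (chr16:10877077-10880614, fold 13.7, higher than 89.6% of the list) and the strongest KDM2B peak (chr16:10878502-10879398, fold 4.54, higher than 82.7% of the list). The KDM2B peak began 12296 bp from the lower end of the record.

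H3K27ac covered the lower end of CIITA more widely than any other mark. A peak of 11451 bp, chr16:10865554-10877004, began 652 bp before the record and had a fold of 36.3, and the next, chr16:10877229-10880685, had 13.8. MYC had a further peak under the first of these with a fold of 6.51, and H3K4me3 had 2 small ones of 6.38 and 6.76. The lower end of the record itself carried H3K27ac alone among the 6 targets.

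The other stretch lay at the upper end of the CIITA record, where DEXI and CLEC16A begin. H3K4me3 formed a peak of 12036 bp there (chr16:10937105-10949140, fold 45.0) that covered the starts of both neighbours. MYC had a fold of 9.95 in a peak covering the DEXI start and 6.68 in one covering the CLEC16A start. KDM2B had 4.25 and 3.48, and H3K27ac 23.4 in the peak on DEXI. These peaks belong to the window of CIITA by position, and which gene they serve was not tested. Between the 2 stretches, and at the near edge of the second, H2AK119ub had 12 small peaks, together 5666 bp or 5.85% of the window, with a highest fold of 3.10.

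CD74 (chromosome 5, 150401639 to 150412910, minus strand) carried MYC and both active marks on its start. H3K4me3 covered its start in a peak of 4026 bp with a fold of 38.8 (chr5:150410030-150414055), and H3K27ac in one of 5264 bp with a fold of 17.1. MYC covered the start with a fold of 7.80 in chr5:150411362-150412939. KDM2B had a single peak of 193 bp, 1154 bp from the start, with a fold of 2.41, which only 14.7% of the list fell below, and a −log10 q of 1.76. H2AK119ub had 12 peaks that covered 12.5% of the window, the nearest 3922 bp from the start, and H3K27me3 had 2, the nearest 8001 bp away.

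**Figure D2:**
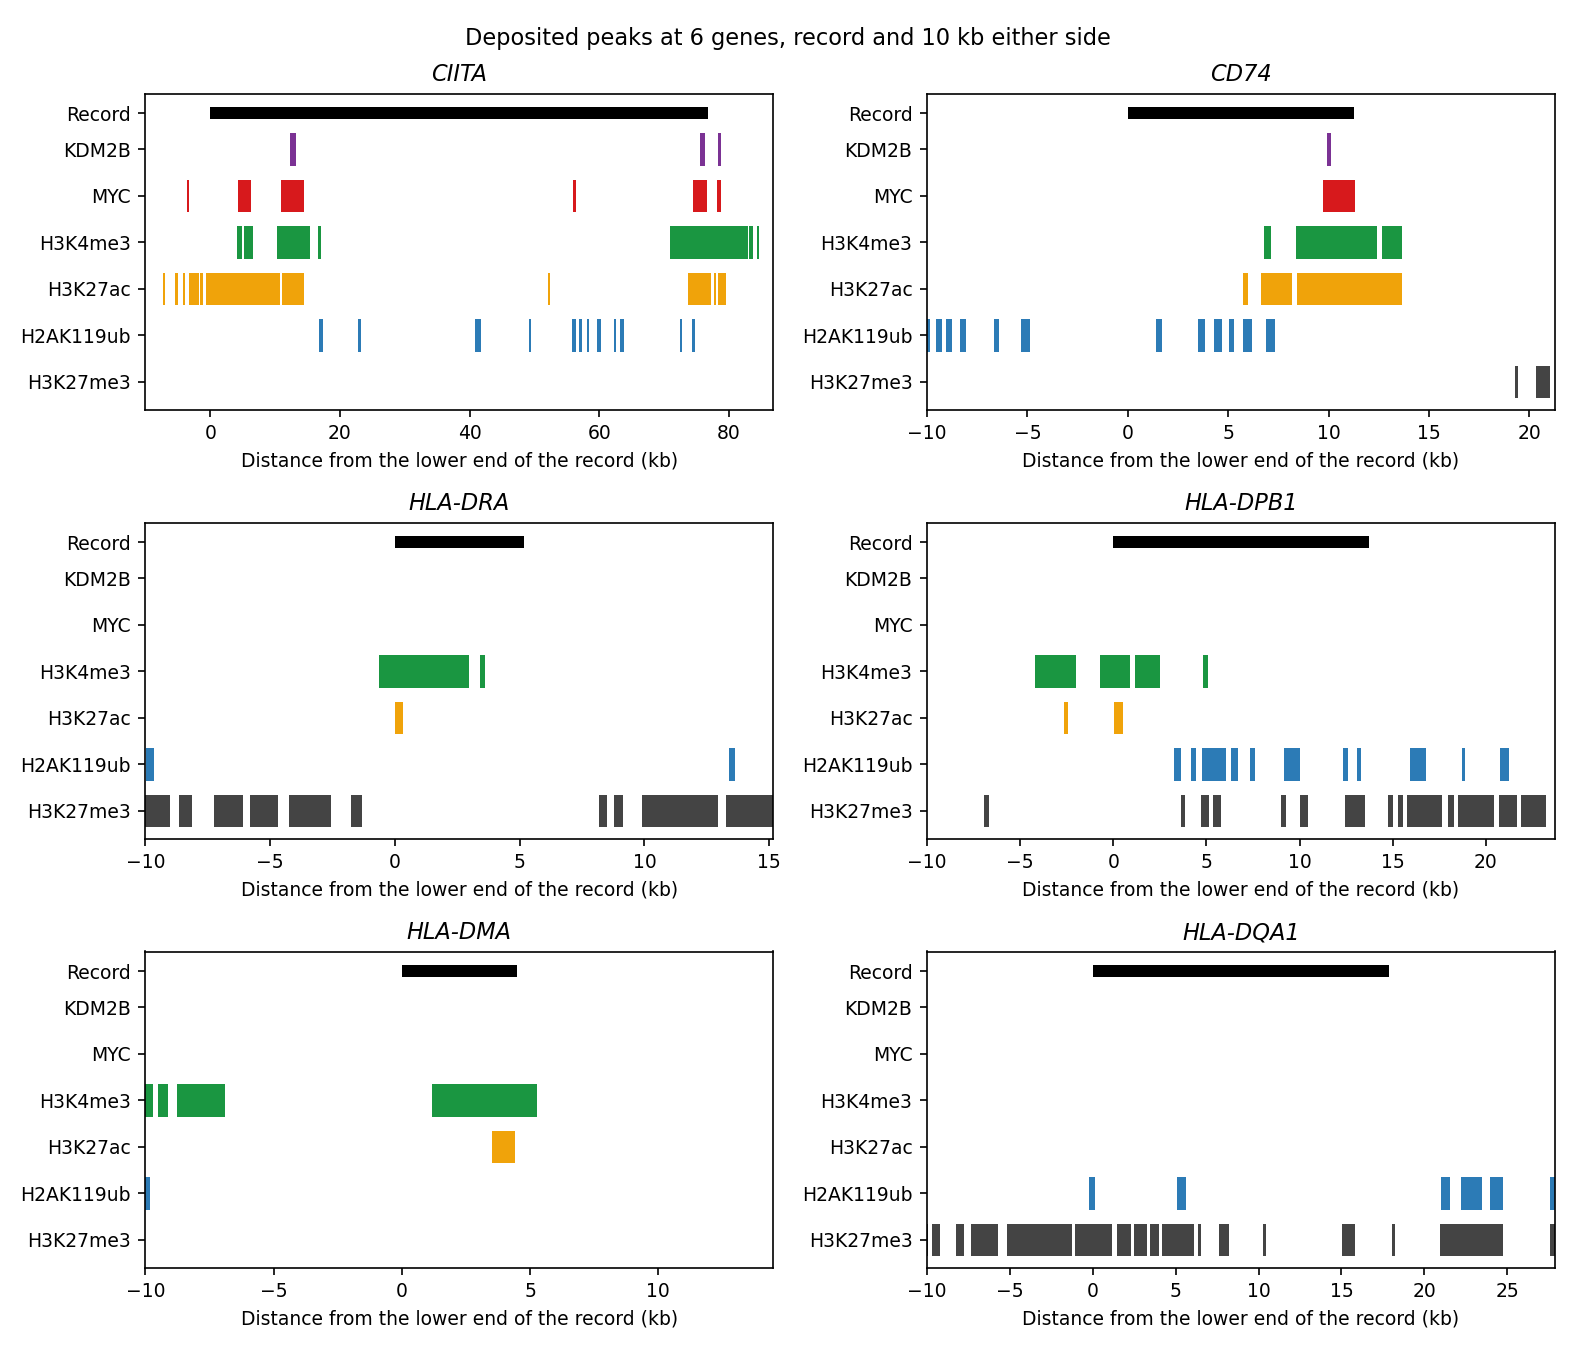
Deposited peaks (coloured blocks, 1 line per target) around 6 of the genes, against distance in kb from the lower end of each record (black bar); narrow peaks are drawn slightly wider than they are to stay visible. CIITA and CD74 carry KDM2B and MYC on their H3K4me3 peaks, HLA-DRA, HLA-DPB1 and HLA-DMA carry H3K4me3 without them, and HLA-DQA1 carries the Polycomb marks alone.

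HLA-DRA, the alpha chain of DR (chromosome 6, 32439887 to 32445046), had the strongest H3K4me3 of the HLA genes. Its peak, chr6:32439242-32442851, was 3610 bp wide and had a fold of 25.2, higher than 83.9% of the list. H3K27ac lay on it in a peak of 321 bp with a fold of 4.68. H3K27me3 had 10 peaks that covered 45.8% of the window, none of them in the record, and the nearest ended 683 bp from the H3K4me3 peak. The gene with its promoter mark thus lay in a gap between stretches of H3K27me3.

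HLA-DRB1, the DR beta chain (chromosome 6, 32578775 to 32589848, minus strand), had weaker H3K4me3 that touched H3K27me3. Its H3K4me3 peaks had folds of 7.61, ending 26 bp from the start, and 4.04. H3K27me3 overlapped the stronger by 191 bp and the weaker by 875 bp, and the H3K27me3 peak on the start had a fold of 3.01. The record held no H3K27ac, and the 1 peak in the window, 6366 bp from the start, had a fold of 2.55. The 6 H2AK119ub peaks covered 6.76% of the window and the 13 H3K27me3 peaks 18.1%.

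The DQ genes lay in a stretch of strong H3K27me3. HLA-DQA1, the alpha chain (chromosome 6, 32637406 to 32655272, plus strand), had no peak of KDM2B, MYC, H3K4me3 or H3K27ac, and its nearest H3K4me3 peak was 26941 bp from its start. Its 17 H3K27me3 peaks covered 50.0% of the window, the largest share of the 10 genes, and the one over the start, chr6:32636334-32638582, had a fold of 4.27. H2AK119ub also covered the start, in a peak of 351 bp with a fold of 3.42. HLA-DQB1, the beta chain (chromosome 6, 32659467 to 32666657, minus strand), had 1 H3K4me3 peak of 941 bp with a fold of 8.44 over its start. H3K27me3 overlapped 787 bp of that peak, in a peak with a fold of 3.83. The strongest H3K27me3 peak of any member lay in the shared DQ window, chr6:32658336-32662164, with a fold of 5.81, higher than 99.2% of the list. H3K27me3 covered 35.6% of the HLA-DQB1 window, and no H3K27ac lay in the window of either DQ gene.

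The DP genes are read from opposite strands and their records overlap. HLA-DPB1, the beta chain (chromosome 6, 33075990 to 33089696, plus strand), had H3K4me3 with a fold of 21.1 over its start (chr6:33075284-33076914, 1631 bp) and H3K27ac with a fold of 3.37 in 515 bp. HLA-DPA1, the alpha chain (chromosome 6, 33064569 to 33080748, minus strand), has 2 starts in the reference. The one 2341 bp from the HLA-DPB1 start had H3K4me3 with a fold of 12.2 and H3K27ac with 2.88, and the nearest H3K27me3 was 4331 bp away. The other start, at the upper end of the record, had H3K4me3 at 2.26, H2AK119ub at 2.95 and H3K27me3 at 2.23 within 1 kb. The 2 starts of HLA-DPA1 therefore differed in the marks listed there, and no test of that difference was possible. H3K27me3 covered 20.4% of the HLA-DPA1 window and 30.0% of that of HLA-DPB1.

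The DM genes, the peptide editors, had H3K4me3 over their starts and no H3K27me3 in their records. HLA-DMA (chromosome 6, 32948618 to 32953097, minus strand) had an H3K4me3 peak of 4109 bp with a fold of 15.0 over its start and H3K27ac of 922 bp with a fold of 4.20, whose edge was 62 bp from the start. It had no H3K27me3 and 1 H2AK119ub peak at the edge of its window. HLA-DMB (chromosome 6, 32934636 to 32941028, minus strand), whose start is 12069 bp from that of HLA-DMA, had H3K4me3 with a fold of 17.7 over 1889 bp and no H3K27ac. Its 6 H3K27me3 peaks covered 22.1% of the window, all outside the record, and the nearest was 7960 bp from the start.

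The share of each window inside peaks separated CIITA and CD74 from the HLA genes by H3K27ac. H3K27ac covered 24.1% of the CIITA window and 22.6% of that of CD74, and between 0% and 3.77% of the HLA windows. The median over the 10 genes was 1.69%, against 6.50% over all genes. For H3K4me3 the median was 15.7% (all genes 10.3%), with HLA-DQA1 lowest at 0% and HLA-DMA highest at 27.2%. For H2AK119ub it was 8.24% (all genes 2.34%), from 0.748% at HLA-DMA to 16.3% at HLA-DPB1. For H3K27me3 it was 21.2% (all genes 0.0371%), from 0% at CIITA and HLA-DMA to 50.0% at HLA-DQA1. Only 50.1% of all genes had any H3K27me3 in the window, so the median over all genes lies near 0 and overstates the contrast. By rank, the members with H3K27me3 ran from CD74, above 61.9% of all genes, to HLA-DQA1, above 88.4%. Much of this lay beside the genes: with the records alone, the H3K27me3 median of the members was 2.38%, with no value over all genes to set beside it. The medians of KDM2B and MYC were 0%, against 0.470% and 2.97% over all genes.

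**Figure D3:**
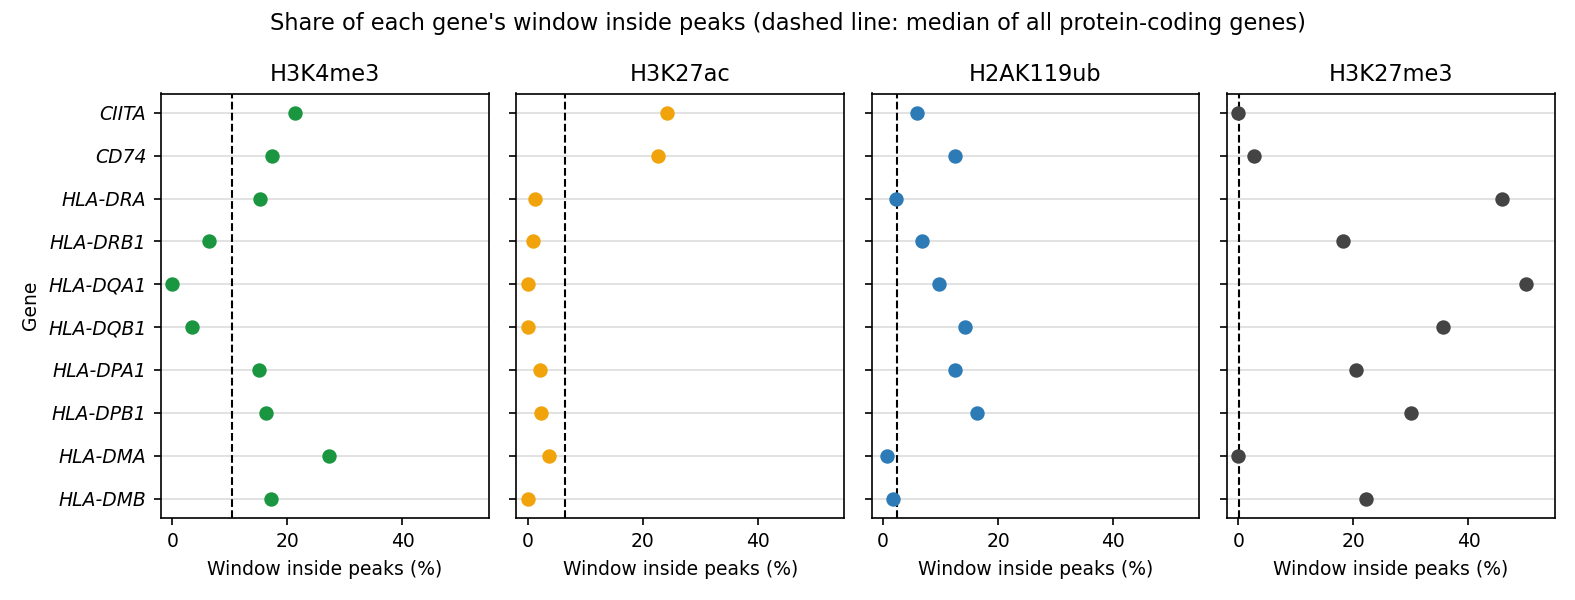
Share of each gene's window inside peaks, in percent (horizontal axis), for the 10 genes (vertical axis) and 4 marks (panels); each point is 1 gene and the dashed line is the median of all 19839 genes. H3K27ac is above 20% only at CIITA and CD74, and H3K27me3 reaches 50.0% at HLA-DQA1.

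The H3K4me3 peaks of the HLA genes were also set beside H3K4me3 peaks of like strength, a comparison not planned beforehand. The strongest such peak at each HLA start had a fold between 7.61 and 25.2, a range that held 8499 peaks of the list. Of those 8499, 73.8% overlapped MYC, 17.0% KDM2B, 79.4% H3K27ac, 30.3% H2AK119ub and 13.3% H3K27me3. Of the 7 HLA peaks, 0 overlapped MYC, 0 KDM2B, 4 H3K27ac, 0 H2AK119ub and 2 H3K27me3. No HLA window held MYC or KDM2B, so the 0 for these factors was fixed in advance and is not a separate observation. Counted over genes with H3K4me3 at the start, MYC was at 92%, KDM2B at 69.1%, H3K27ac at 90.4%, H2AK119ub at 32.2%, H3K27me3 at 9.93%, and neither MYC nor KDM2B at 7.69%. Among the 9 members with H3K4me3 at the start, MYC was at 2, KDM2B at 1, H3K27ac at 6, H2AK119ub at 1 and H3K27me3 at 3, and neither factor at 7. These counts include CIITA, whose KDM2B, MYC and H3K4me3 lay at the upper end of its record, beside DEXI and CLEC16A. Among the members with an annotated start, only CD74 had MYC within 1 kb and none had KDM2B.

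Promoter sequences from RefSeq (GRCh38.p14, 250 bases before to 50 after the start) were found for 8 of the 10 genes, with 2 for HLA-DPA1. HLA-DRA and CIITA had no entry. Matches to the X box core and to CCAAT are shown because CIITA acts through proteins bound at the X and Y boxes. The marks over these stretches differed between genes. The HLA-DPB1, HLA-DQA1 and CD74 lines had no match to the X core and give 60 bases reaching just past the last CCAAT before the start. Looser forms of either box were not searched, so a line without a match may still hold one. The capitals mark matches to the X box core, the longer run in the first 4 lines, and to CCAAT, the letters NF-Y binds, which reads ATTGG on the other strand. The lines run 5′ to 3′ on the strand of the gene. The HLA-DRB1 line is chr6:32589884-32589933 (minus), HLA-DQB1 chr6:32666735-32666784 (minus), HLA-DMA chr6:32953166-32953216 (minus), HLA-DMB chr6:32941040-32941122 (minus), HLA-DPB1 chr6:33075866-33075925 (plus), HLA-DQA1 chr6:32637289-32637348 (plus) and CD74 chr5:150412953-150413012 (minus).
HLA-DRB1: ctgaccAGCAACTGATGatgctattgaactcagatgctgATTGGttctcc
HLA-DQB1: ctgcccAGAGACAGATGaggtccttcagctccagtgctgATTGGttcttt
HLA-DMA: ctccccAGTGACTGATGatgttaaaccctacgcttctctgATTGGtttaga
HLA-DMB: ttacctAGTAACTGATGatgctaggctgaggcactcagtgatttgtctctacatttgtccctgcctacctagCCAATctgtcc
HLA-DPB1: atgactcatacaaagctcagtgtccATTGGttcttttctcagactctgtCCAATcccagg
HLA-DQA1: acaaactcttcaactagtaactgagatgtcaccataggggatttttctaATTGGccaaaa
CD74: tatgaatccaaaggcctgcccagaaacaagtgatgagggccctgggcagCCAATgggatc

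The 4 genes HLA-DRB1, HLA-DQB1, HLA-DMA and HLA-DMB held both the X box core and CCAAT, searched on both strands, as did 0.258% of all 22132 promoters in the table. The X core alone was in 0.687% of them and CCAAT in 34.6%, and CCAAT was in the promoters of 7 members, all but HLA-DPA1. Between the X core and the next CCAAT or ATTGG lay 22 bases in HLA-DRB1 and HLA-DQB1, 23 in HLA-DMA and 55 in HLA-DMB. TGACG, a short form of the CREB site TGACGTCA that also lies within it, was in 5 of the 9 member promoters and 27.9% of all. TGACGTCA itself was in 0 of 9 and 2.26% of all. CACGTG, the E-box letters that MYC binds, was in 0 of the 9 and in 8.34% of all promoters. TTCNNNGAA, the site form of STAT proteins, was in that of HLA-DQA1 and in 6.79% of all. A match is a description of letters, and binding of these factors was not measured except for MYC.

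The marks over the printed stretches separated the genes. The stretches of HLA-DMA, HLA-DMB, HLA-DPB1 and CD74 lay wholly inside H3K4me3 peaks, and that of CD74 inside H3K27ac as well. The stretch of HLA-DRB1 lay wholly inside an H3K27me3 peak and outside H3K4me3. That of HLA-DQA1 lay wholly inside both H3K27me3 and H2AK119ub, and that of HLA-DQB1 inside no peak. Over the 9 promoters of 300 bases, H3K4me3 touched 8, H3K27me3 touched 3, H2AK119ub and H3K27ac 2 each, MYC 1 and KDM2B 0. The share of all promoters touched was not computed for these 300 bases, so whether the counts are unusual cannot be said.

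HLA genes are polymorphic and have near-identical relatives, HLA-DRB1 and HLA-DRB5 above all. Reads of such genes can map poorly to the reference or be split between copies. How far this set the peaks listed at HLA-DRB1, HLA-DQA1 and HLA-DQB1, or their absence, was not tested.

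The region from HLA-DRA to the end of HLA-DPB1, 649.81 kb, held stretches of H3K27me3 both between and over marks of active promoters. Some H3K4me3 peaks overlapped H3K27me3, as at HLA-DRB1, at HLA-DQB1 and at chr6:32458498-32460758 (H3K4me3 fold 11.1). H3K27me3 had 216 peaks there and covered 39.8%, H2AK119ub 106 peaks and 7.63%, H3K4me3 32 peaks and 11.6%, and H3K27ac 18 peaks and 4.19%. With gaps of up to 3 kb closed, the longest H3K27me3 stretches were 128 kb over HLA-DQA2 and HLA-DQB2, 73.5 kb over HLA-DOA, 41.2 kb after HLA-DRA and 33.4 kb over HLA-DQA1. TAP2, PSMB8, TAP1 and HLA-DMA had no H3K27me3 in their windows. No stretch lay over the records of HLA-DRA, HLA-DOB, PSMB9, HLA-DMB and BRD2 either, although their windows held H3K27me3.

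KDM2B had 11 peaks in the region and MYC 7, most of them at 5 genes that are not class II genes. TAP1 and TAP2 build the peptide transporter of class I and PSMB8 and PSMB9 are immunoproteasome subunits, and MYC had a fold of 23.8 in the peak on the TAP2 start. BRD2, a chromatin reader whose record begins 15497 bp from the HLA-DMA start, had the highest folds of the region, 49.1 for MYC, 5.68 for KDM2B and 111 for H3K27ac. Away from the named genes, both factors had a peak about 454 kb from HLA-DRA, with folds of 3.68 for KDM2B and 6.37 for MYC. MYC also had 1 of 2.87 at chr6:32610149-32610409, the MYC peak nearest to HLA-DRB1, 20301 bp from its start.

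**Figure D4:**
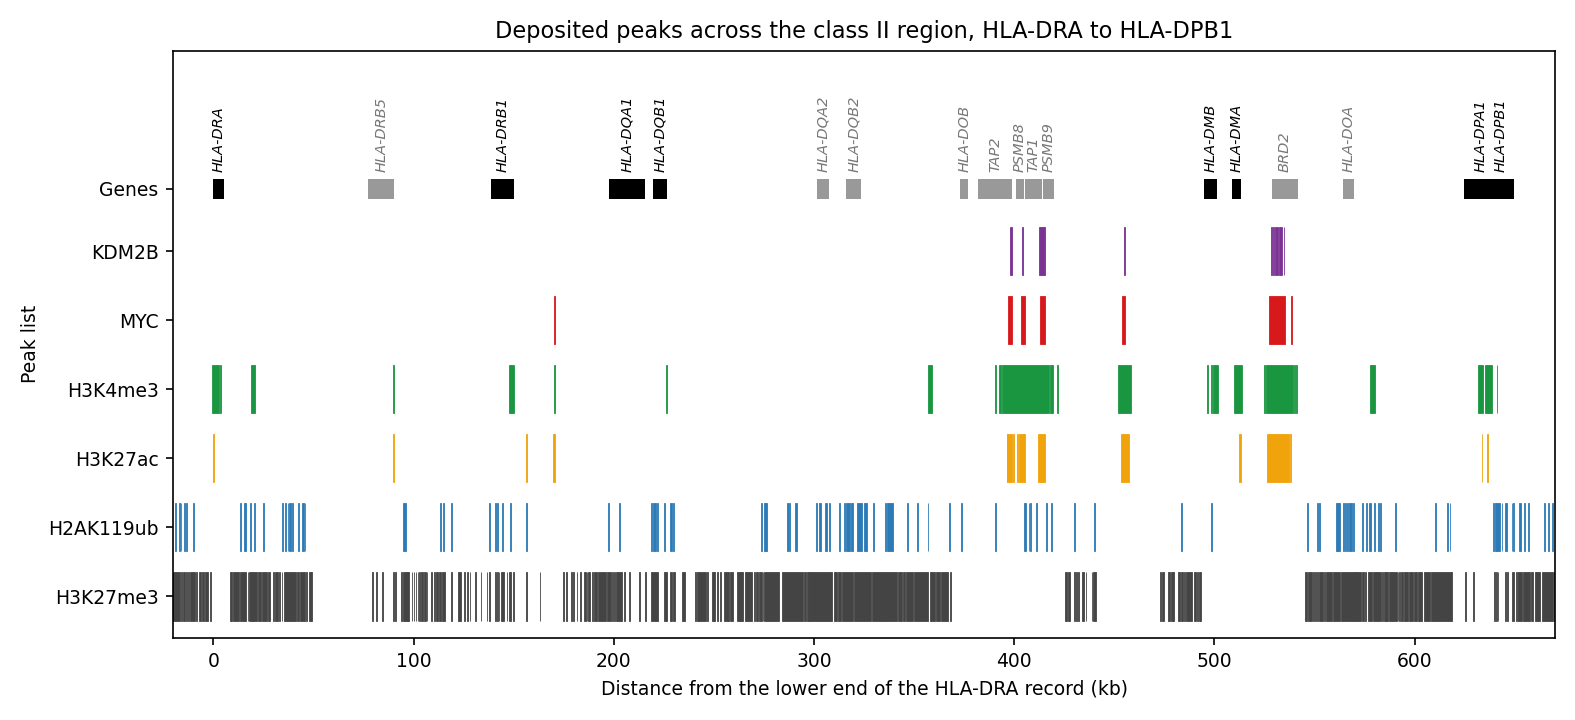
Deposited peaks (coloured blocks, 1 line per target) from HLA-DRA to HLA-DPB1 against distance in kb from the lower end of the HLA-DRA record, with members in black and other genes in grey; narrow peaks are drawn slightly wider than they are. KDM2B and MYC gather at TAP2 to PSMB9 and at BRD2, and H3K27me3 fills much of the rest.

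The 5 other class II genes carried fewer active marks. HLA-DRB5, HLA-DQA2, HLA-DQB2, HLA-DOA and HLA-DOB had no KDM2B or MYC in their windows (59.6% and 79% of all genes). All had both Polycomb marks there (44.6% of all genes). The windows of HLA-DQA2 and HLA-DQB2 overlap and share peaks, so these genes are not independent. H3K4me3 was in 2 of 5 windows (82.9% of all genes), HLA-DRB5 with a fold of 5.69 and HLA-DOA with 10.2. H3K27ac was in that of HLA-DRB5 alone, at 2.35 (78.4% of all genes). H3K27me3 covered 89.0% of the HLA-DQB2 window, 84.2% of that of HLA-DQA2 and 80.0% of that of HLA-DOA, but 18.5% of that of HLA-DRB5 and 17.8% of that of HLA-DOB. HLA-DO, the product of HLA-DOA and HLA-DOB, restrains HLA-DM.

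Genes that act before and beside the class II genes were counted in the same way. The shares of all genes at the start were 64.5% for MYC, 69.2% for H3K4me3, 63.7% for H3K27ac and 23.5% for H3K27me3. In the window they were 59.6% for KDM2B and 50.1% for H3K27me3. Of 7 genes for the promoter-bound proteins (RFX5, RFXAP, RFXANK, NFYA, NFYB, NFYC and CREB1), all 7 had MYC, H3K4me3 and H3K27ac at the start and 0 had H3K27me3 there. In the window 5 had KDM2B, the exceptions being RFX5 and RFXANK. H3K27me3 was in the windows of 4, RFX5, RFXAP, RFXANK and NFYB, with folds of up to 2.93. Of 7 genes on the route from interferon-gamma to CIITA (IFNGR1, IFNGR2, JAK1, JAK2, IRF1, SOCS1 and USF1), all 7 had MYC, H3K4me3 and H3K27ac at the start and 5 had KDM2B, with IFNGR1 and JAK2 lacking it. IRF1, which activates CIITA, had a KDM2B fold of 5.59 and a MYC fold of 13.6. SOCS1, an inhibitor of the route, was the 1 gene of the 7 with H3K27me3 in the window, at 2.65. Of 6 lysosomal genes that process antigen, CTSS, the protease that trims CD74 in antigen-presenting cells, had no peak in any of the 6 lists, and the other 5 had MYC, H3K4me3 and H3K27ac in the window, a share near those of all genes (79%, 82.9% and 78.4%). IFI30, a reductase of the same route, had no KDM2B and an H3K27ac fold of 2.65.

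Class I genes carried both factors throughout. All 10 class I and related genes counted, HLA-B, HLA-C, HLA-E, B2M, TAP1, TAP2, TAPBP, PSMB8, PSMB9 and NLRC5, had KDM2B, MYC, H3K4me3 and H3K27ac at the start. The shares of all genes were 48.1%, 64.5%, 69.2% and 63.7%. TAP1 and PSMB9 share the peaks on their starts, and the windows from TAP2 to PSMB9 overlap, so these genes are not independent. Their median H3K4me3 coverage was 50.3% (all genes 10.3%). H3K27me3 was in the window of 5 of 10, near the share of all genes (50.1%), with HLA-B covered over 75.3% and HLA-C over 70.2%. NLRC5, the counterpart of CIITA for class I, had a KDM2B fold of 5.10, a MYC fold of 13.4 and an H3K4me3 fold of 44.2, beside 4.54, 13.7 and 42.7 in the stretch inside CIITA. Whether the 2 classes differ beyond the variation between libraries could not be tested with 1 list per target.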

How the data were processed

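Reads were trimmed with Trim Galore, aligned to hg38 with Bowtie2 (2.4.5), handled with SAMtools (1.6) and turned into peaks with MACS2 (2.2.7.1), per the submitters' processing notes. The chromatin was digested with enzymes, per the labels' protocols. The control, and whether or how the 2 libraries of a group were combined, are not given in the sources used here. Each deposited list gives a score, a fold (the authors' ratio of signal over background), a −log10 q-value and a summit. The p-value columns, 6 in all, were not used. The highest q in a list was between 0.0498 and 0.0500. The broad marks H3K27me3 and H2AK119ub are deposited as narrow peaks, so a stretch counts as many peaks.

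Windows were the gene record and 10 kb either side. A start was the annotated start, known for 79.7% of genes, within 1 kb, or else either end of the record. Shares of all genes use the same rule on all 19839 protein-coding genes. Overlap meant at least 1 bp. Counting was tested on simulated data (Python 3.11.15, pandas 2.3.3). No statistical test was run.

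The members and lists were chosen with earlier results of these data known. All 10 members were named for every target, and of each other list up to 4 genes with the highest fold, up to 4 without a peak and all members of counts of 5 or fewer. A few genes of the other lists are not reported here, and the lists were counted without them. Alternatives were windows of 0, 5 and 25 kb, start windows of 500 and 2500 bp, a stricter q of 1e-5, only the 15000 strongest peaks of each list, summits, 50% of a peak inside, and peaks merged across 3 kb.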

Additional observations from a re-analysis of the deposited data

How the results depend on the processing

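Of 86 recomputed summary values, 70 moved by at most 1.5 times and 16 by more; no value has a replicate error. KDM2B was left at 1 gene, CIITA, with q under 1e-5 and with only the 15000 strongest peaks of each list. With those 15000 peaks, H3K27ac was left at 2 genes, H2AK119ub at 3 and H3K27me3 at 2. That cut keeps most of the 20018 KDM2B peaks but a small part of the 234493 for H2AK119ub and 306484 for H3K27me3. It is therefore not equally strict across the lists. No share of all genes stands beside the counts in this paragraph, so a fall or rise cannot be read as particular to the members. With windows of 25 kb MYC was at 4 genes, KDM2B at 3 and H3K27me3 at all 10, CIITA and HLA-DMA included. With the record alone, H3K27me3 was at 5 genes, and the median shares inside peaks were 23.7% for H3K4me3, 4.23% for H3K27ac and 2.38% for H3K27me3. With peaks merged across 3 kb, the medians were 22.9% for H2AK119ub and 43.0% for H3K27me3. KDM2B was at 0 starts within 500 bp and at 2 within 2500 bp, and H2AK119ub at 6 within 2500 bp. Taking either end of every record, an alternative chosen after seeing the data, put H2AK119ub at 5 starts. Leaving out peaks on other genes' starts, also chosen after seeing the data, changed none of the counts of genes with a peak. It could not change the KDM2B count, because no KDM2B peak in these windows covers an annotated start. CIITA also keeps MYC peaks inside the gene. The counts at starts were not recomputed in this way. Of 38 highest folds, 5 rose past 1.5 times with 25 kb, where HLA-DMA and HLA-DMB reach BRD2 (H3K4me3 55.4), and with the record alone 1 fell (HLA-DPA1 H3K27me3, 2.23) and 6 had no peak left: CD74, HLA-DRA and HLA-DMB H3K27me3, HLA-DRA and HLA-DMA H2AK119ub and HLA-DRB1 H3K27ac.

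No paired analysis was possible because a list does not resolve the libraries of a group, and leaving out a replicate was not run for the same reason. Absence of a peak means only that none was deposited: without counts, a weak signal and none cannot be told apart. Peaks show where a mark was enriched and not whether a gene was expressed.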

Other observations

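Genes that mark professional antigen-presenting cells were counted too. Of 9 such genes (PAX5, EBF1, MS4A1, CD79A, SPI1, CD86, CD80, ITGAX and PTPRC), 8 had H3K27me3 at the start, 6 had H2AK119ub, 4 had H3K4me3 and 0 had H3K27ac, where the shares of all genes were 23.5%, 38.1%, 69.2% and 63.7%. MYC was at 3 of these starts (64.5% of all genes) and KDM2B at 1 (48.1%). In the window, H3K27ac was found at 4 of the 9 (78.4% of all genes), PAX5, EBF1, CD79A and PTPRC, with folds of up to 106. PAX5, MS4A1, CD79A, SPI1, ITGAX and PTPRC are also among the blood cell genes counted above, so this is largely the same observation. PTPRC, like CIITA, had no H3K27me3 in its window.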
